A study of Mus musculus with 6 samples.

Results

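Collagens, the enzymes that cross-link or cut them and the inhibitors of those enzymes were followed in mouse liver on gene expression arrays. Genes were taken by mouse symbol: Col followed by a number, the letter a and a number; Mmp, Timp, Lox or Adamts followed by a digit or the letter l; and Lox itself. They had to be named through the RefSeq transcript accession of a probe. This gave 76 genes, each with 1 probe, out of 34175 features tested, which were 13971 named genes and 20204 unnamed probes. The 76 were 35 collagen chains, 20 matrix metalloproteinases (MMPs), 3 tissue inhibitors of metalloproteinases (TIMPs), 5 lysyl oxidases and 13 ADAMTS or ADAMTS-like genes. A further 23 genes with fitting symbols, Timp2, Adamts13 and Col6a3 among them, were not named among the probes and were not analysed here.

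Livers of C57BL/6 mice aged 14 months were compared. The Src-transgenic group was 3 mice (replicates 1, 3 and 4) that carried human c-Src, a tyrosine kinase and proto-oncogene, under control of a mouse metallothionein promoter. The wild-type group was 3 mice of the same strain and age (replicates 1, 2 and 4). The promoter answers to zinc and is not restricted to one liver cell type, and the study describes its line as usually not needing zinc. The labels do not say whether zinc was given to these mice, which sex they were, whether RNA was pooled or whether the sampled tissue held tumour.

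Fibrillar collagens give the liver its connective tissue around portal tracts and veins, and type IV collagen forms basement membranes. In the injured liver, activated stellate cells and portal fibroblasts are the main makers of fibrillar collagen, which lysyl oxidases then cross-link. MMPs cut collagens and other matrix proteins, TIMPs bind and block MMPs, and ADAMTS proteases trim procollagens or cut proteoglycans. In whole liver RNA, fewer cells of a type and less RNA per cell cannot be told apart.

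The median probe signal was 94.8 to 117 on Src-transgenic arrays and 53.8 to 93.4 on wild-type arrays. Between 62.6% and 71.7% of probes lay above background, a threshold set from bacterial control spots. Values below are log2 signals after quantile normalization between arrays, and each probe is compared only with itself. The Src probe read 9.67, 8.48 and 7.71 in Src-transgenic livers (replicates 1, 3 and 4), against 6.65, 7.21 and 6.62 in wild-type livers (replicates 1, 2 and 4). Each Src-transgenic array exceeded each wild-type array for Src, with a log2 difference of 1.79 ± 0.51 (SE) that limma did not call (adjusted p = 0.691). The 7 hepatocyte markers measured were all above background on all arrays of at least 1 group. Src-transgenic replicate 4 stood apart in that of the Y chromosome genes Ddx3y, Uty and Eif2s3y 0 of 3 lay above background, against 3 of 3 on each of the other 5 arrays. Correlations of log2 signals over probes were 0.862 to 0.939 between groups, 0.874 to 0.919 among Src-transgenic arrays and 0.878 to 0.916 among wild-type arrays. Regions of the array surface where spots deviated together, called patches here, held 1.80% to 9.96% of probes per array.

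Several MMP genes stand side by side on mouse chromosome 9, and their promoters are shown because many carry a site for AP-1, the Fos and Jun factor that growth signalling activates. The motif searched was TGACTCA, whose reverse complement is TGAGTCA, on both strands of RefSeq windows from 250 bases before to 50 after each transcription start (GRCm38.p6). It was present in 5.20% of 32851 windows of all genes. Of the 76 genes, 52 had a listed window, and 8 of these (15.4%) held the motif in at least 1 window. The share of all windows is counted by window and not by gene, so the 2 shares are not like for like. Of the 8 genes, all but Col6a1 are MMP genes on chromosome 9. Of 9 MMP genes on chromosome 9, 7 carried it, namely Mmp13, Mmp12, Mmp1b, Mmp3, Mmp1a, Mmp10 and Mmp7, and Mmp20 and Mmp27 did not; Mmp27 was not named among the probes. The 120 bases before the start are given 5′ to 3′ with the motif in capitals, for Mmp12 at the later of its 2 listed starts and for Mmp7 at the earlier. The windows at the other listed starts of Mmp12 and Mmp7 lacked the motif.
Mmp13, chr9:7272394-7272513, plus strand: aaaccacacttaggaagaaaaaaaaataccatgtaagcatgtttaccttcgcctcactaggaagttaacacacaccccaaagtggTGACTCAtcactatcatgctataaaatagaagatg
Mmp12, chr9:7347254-7347373, plus strand: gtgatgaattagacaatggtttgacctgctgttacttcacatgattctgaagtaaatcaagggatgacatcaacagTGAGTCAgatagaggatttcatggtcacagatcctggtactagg
Mmp1b, chr9:7388027-7388146, minus strand: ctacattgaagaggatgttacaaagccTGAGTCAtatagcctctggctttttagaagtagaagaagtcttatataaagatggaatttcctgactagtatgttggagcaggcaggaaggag
Mmp3, chr9:7445702-7445821, plus strand: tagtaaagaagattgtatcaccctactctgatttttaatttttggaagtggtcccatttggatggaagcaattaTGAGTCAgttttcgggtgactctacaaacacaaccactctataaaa
Mmp1a, chr9:7464021-7464140, plus strand: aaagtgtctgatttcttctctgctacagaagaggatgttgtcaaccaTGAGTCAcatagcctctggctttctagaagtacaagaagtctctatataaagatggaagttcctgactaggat
Mmp10, chr9:7502222-7502341, plus strand: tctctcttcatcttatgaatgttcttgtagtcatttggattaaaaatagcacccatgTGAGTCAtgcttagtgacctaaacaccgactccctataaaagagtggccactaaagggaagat
Mmp7, chr9:7691970-7692089, plus strand: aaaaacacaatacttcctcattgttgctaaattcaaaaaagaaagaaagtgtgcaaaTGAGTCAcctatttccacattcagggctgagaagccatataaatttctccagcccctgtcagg
A match is a description of these letters only. The motif began 35 bases before the start in Mmp13, 44 in Mmp12, 46 in Mmp3 and 63 in both Mmp10 and Mmp7. The letters TATAAA (reverse TTTATA), the core of a TATA box, were in at least 1 window of 8 of the 9 MMP genes. Among all windows, counted by window and not by gene, 13.6% held them.

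The 2 main chains of basement membrane collagen, Col4a1 and Col4a2, are transcribed from opposite strands, with listed starts 21 bases apart. Each listed start lies within the first transcribed bases of the other gene. The windows of the 2 genes share 78 bases, in capitals in the Col4a1 window, and these include transcribed bases of both. That window is shown because both genes are on the array and can be read against each other.
Col4a1, chr8:11312777-11313076, minus strand: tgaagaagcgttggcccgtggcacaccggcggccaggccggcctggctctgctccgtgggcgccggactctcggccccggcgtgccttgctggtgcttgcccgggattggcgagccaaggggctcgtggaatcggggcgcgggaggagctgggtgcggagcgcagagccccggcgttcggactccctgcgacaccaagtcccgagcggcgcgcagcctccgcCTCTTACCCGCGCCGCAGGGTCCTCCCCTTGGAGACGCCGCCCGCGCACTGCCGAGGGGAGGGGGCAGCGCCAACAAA

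Across the 76 genes no gene passed the test in Src-transgenic against wild-type livers: at an adjusted p under 0.05 limma gave 0 genes with a higher and 0 with a lower signal, and 0.0% of all features were called. An unadjusted p under 0.05 was found for 7 genes (9.21%), of which 3 were higher and 4 lower, against 7.09% of all features. By direction the background was 4.37% higher and 2.72% lower, and with median scaling in place of quantile normalization it was 2.76% higher and 3.84% lower. Without Src-transgenic replicate 3 the count of 7 became 4, none of them higher. Without Src-transgenic replicate 4 it became 6, 1 higher and 5 lower, and Col26a1, Col16a1 and Col4a6 were not among them. Shares over all features were not worked out for these fits, so their directions cannot be set against a background. For 12 genes (15.8%) the arrays of the groups were fully separated, 9 higher and 3 lower, against 16.0% of all features (10.1% higher and 5.9% lower). Both shares of the matrix genes lay near the background. The median log2 change was -0.03 over the 76 genes and 0.02 over all features. Positive values numbered 35 and negative values 41. Among genes above background on all arrays of at least 1 group, the 95% interval of the difference stayed within 1 log2 unit either way for 27.

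**Figure D1:**
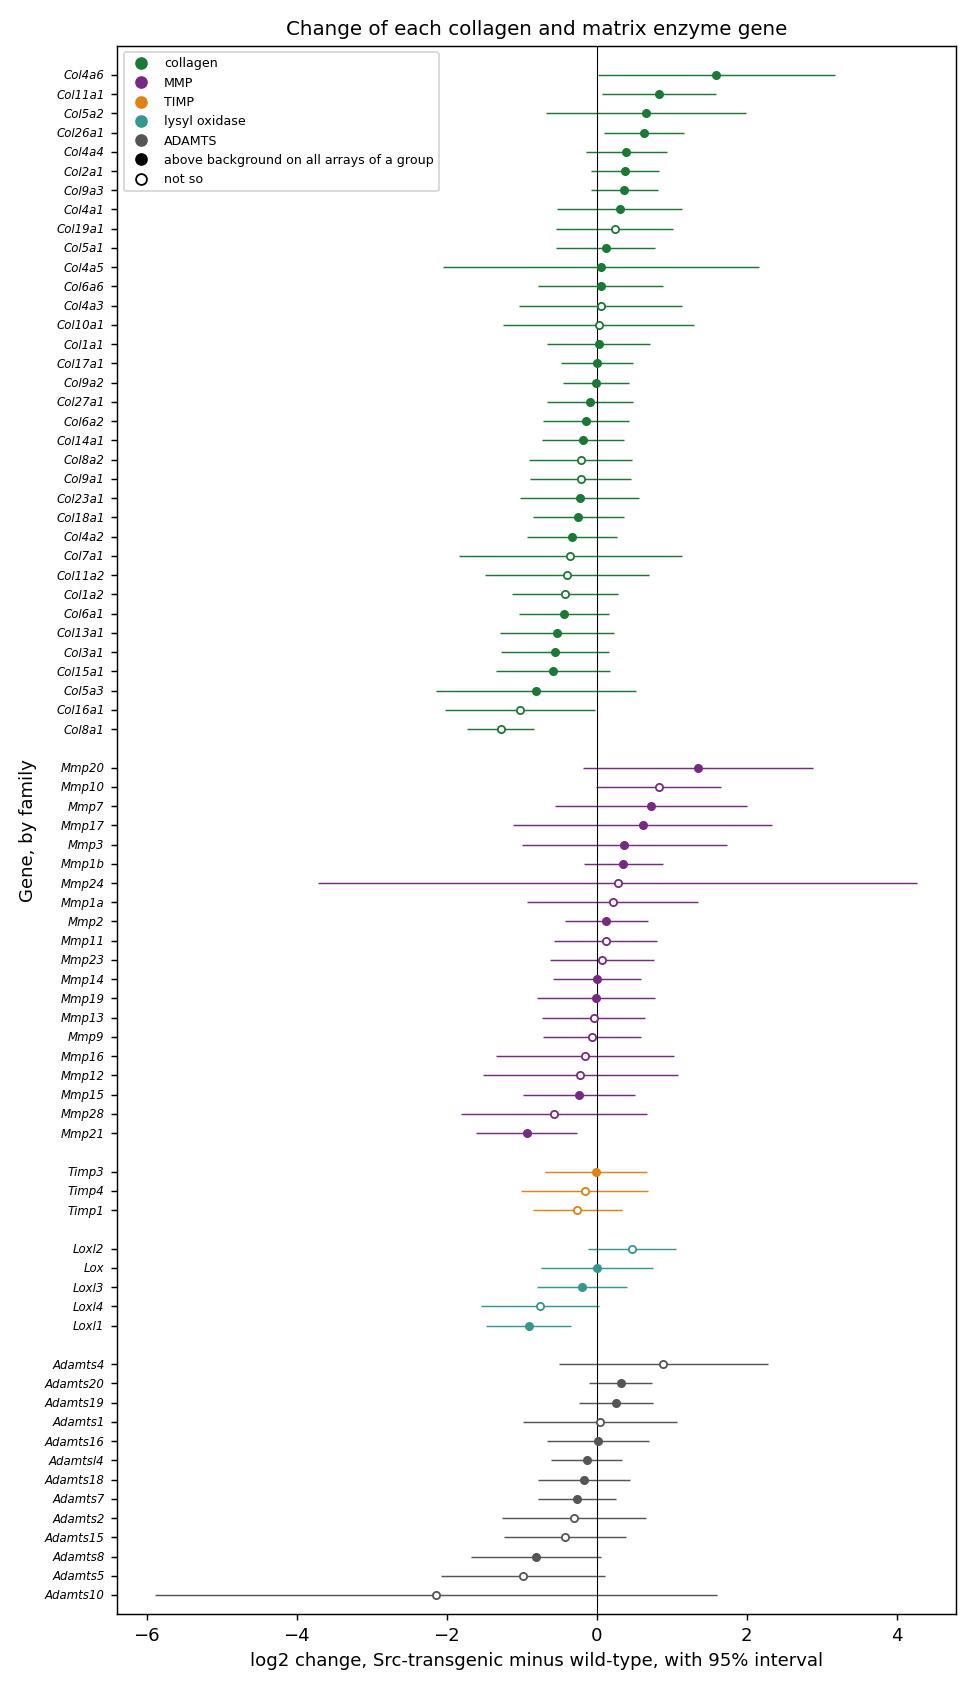
Log2 change of each of the 76 genes, Src-transgenic minus wild-type (x axis), by family (y axis), with limma's 95% interval as a line and filled points for genes above background on all arrays of at least 1 group. Intervals reach across 0 for all but 7 genes, and the points of each family lie on both sides of 0 except for the 3 TIMPs.

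Detection set how much could be read. Of the 76 genes, 46 (60.5%) were above background on all 3 arrays of at least 1 group, and 23 were above it on no array. The 23 include Col1a2, Timp1, Mmp9, Mmp12, Mmp13, Loxl2 and Adamts2, for which a difference was not detectable at this signal. The 46 had a median change of 0.00, with 24 positive and 22 negative.

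The fibril-forming chains gave no common direction, with 5 of 10 positive and a median of -0.03. Col3a1, the type III chain abundant in portal tracts, read 8.16, 7.96 and 8.71 in Src-transgenic livers, against 8.88, 9.15 and 8.45 in wild-type livers. The groups overlapped, since Src-transgenic replicate 4 lay above wild-type replicate 4. The log2 difference was -0.55 ± 0.29 (SE), with a 95% interval of -1.27 to 0.16 and an adjusted p of 0.695. Col1a1, the main type I chain, read 8.01, 7.30 and 7.76 in Src-transgenic livers and 7.82, 7.89 and 7.29 in wild-type livers. The groups overlapped, and the difference of 0.02 ± 0.28 had an interval of -0.66 to 0.71. Its partner chain Col1a2 had -0.43 ± 0.29 at signals that were not above background.

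Type V collagen regulates fibril width and showed 1 outlying array. Col5a2 read 5.68, 5.53 and 7.53 in Src-transgenic livers, against 5.62, 5.74 and 5.40 in wild-type livers. Src-transgenic replicate 4, the array without Y-linked signal, was the high one, and the difference of 0.66 ± 0.55 was 0.01 without it. Col5a3 was lowest on that array, with a range of 6.07 to 7.998 in Src-transgenic livers and 7.69 to 8.54 in wild-type livers, and its difference of -0.80 ± 0.55 was -0.21 without it. Col5a1 differed by 0.12 ± 0.27. The part of that array's other differences in these values was not tested.

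Col11a1, a minor fibril chain of cartilage, read 6.16, 6.95 and 5.92 in Src-transgenic livers, against 5.72, 5.34 and 5.48 in wild-type livers. The difference was 0.83 ± 0.31 (unadjusted p = 0.037, adjusted p = 0.691), and it was 0.43 after local correction of patches. The groups did not overlap. Col2a1, the main cartilage collagen, differed by 0.38 ± 0.19 and Col9a3, a chain of the fibril-associated type IX collagen, by 0.37 ± 0.18, each with all Src-transgenic arrays above all wild-type arrays. Across all features 10.1% had groups separated in this direction. The other type IX and XI chains Col9a1, Col9a2 and Col11a2 had -0.21, -0.01 and -0.39 with overlapping groups, Col9a1 and Col11a2 at signals not above background on all arrays of either group.

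Among the 6 basement membrane type IV chains 5 values were positive, against 51.7% of all features, with a median of 0.18. Col4a1 read 7.36, 6.86 and 6.88 in Src-transgenic livers and 7.21, 6.88 and 6.08 in wild-type livers. Col4a2 read 6.11, 5.92 and 5.88 in Src-transgenic livers and 6.70, 6.25 and 5.96 in wild-type livers. The groups of both genes overlapped. This pair with overlapping windows had 0.31 ± 0.34 for Col4a1 and -0.33 ± 0.25 for Col4a2, neither past the test. The other type IV genes also lie as head-to-head pairs. Col4a3 had 0.05 ± 0.45 beside 0.40 ± 0.22 for Col4a4, and Col4a5 had 0.06 ± 0.87 beside 1.59 ± 0.65 for Col4a6. Col4a3 was above background on no array. With single arrays left out Col4a3 ran from -0.39 to 0.45, Col4a5 from -0.55 to 1.06 and Col4a1 from -0.015 to 0.55. Col4a4 and Col4a6 stayed positive and Col4a2 negative, so the count of positive values was not stable. The wide error of Col4a5 comes with 1 high array, wild-type replicate 4 at 8.47, where its probe lay in a patch.

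Col4a6, a chain of specialised basement membranes, gave the highest log2 change of the 76 genes. It read 5.51, 6.38 and 5.70 in Src-transgenic livers, all above background, against 2.80, 4.96 and 5.05 in wild-type livers, none above background. There was no overlap (unadjusted p = 0.048, adjusted p = 0.691). Because the wild-type signal was not well above background, the fold is given as at least 1.24-fold higher. That fold takes no account of the error of the means, and the log2 change had an interval of 0.02 to 3.17, which reaches smaller differences. The log2 change was 0.86 without wild-type replicate 1, the lowest array.

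**Figure D2:**
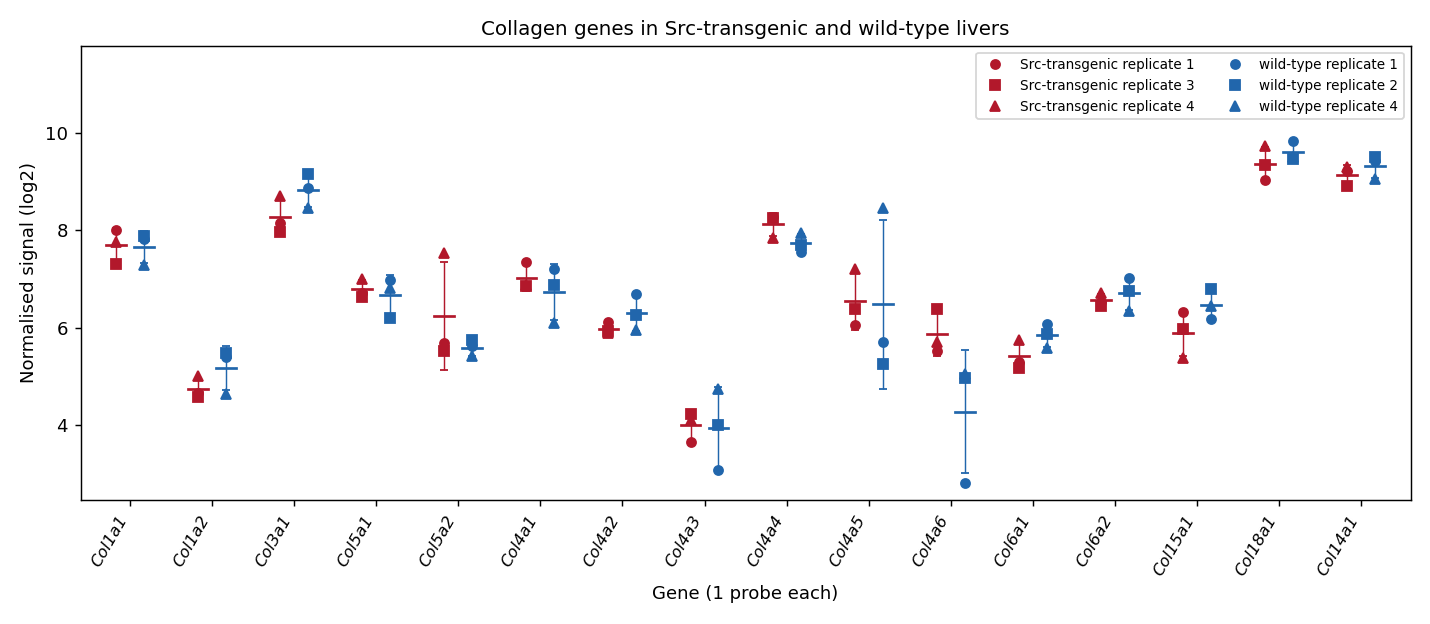
Normalised log2 signal (y axis) of 16 collagen genes (x axis), with Src-transgenic livers left of wild-type livers, 1 point per mouse, and the mean and SD as bars. Among the 16 genes drawn, Col4a6 has all 3 Src-transgenic points above all 3 wild-type points, and Col5a2 and Col4a5 each have 1 array far from the others of its group.

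Type VI chains, which form beaded filaments beside cells, had 1 positive and 2 negative values. Col6a1 read 5.29, 5.18 and 5.75 in Src-transgenic livers, against 6.08, 5.87 and 5.58 in wild-type livers, a difference of -0.44 ± 0.25 with overlapping groups. Col15a1 and Col18a1, the basement membrane collagens that release endostatin-like fragments, had -0.58 ± 0.31 and -0.25 ± 0.25. Col18a1, which hepatocytes express, read 9.04, 9.34 and 9.73 in Src-transgenic livers and 9.85, 9.48 and 9.52 in wild-type livers. Both genes had overlapping groups. Col14a1, a fibril-associated collagen, differed by -0.18 ± 0.22, and Col17a1, a transmembrane collagen of epithelia, by 0.00 ± 0.20 with an interval of -0.48 to 0.48.

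Col26a1 had the smallest unadjusted p among collagens above background. It read 9.04, 9.29 and 9.18 in Src-transgenic livers, against 8.22, 8.61 and 8.78 in wild-type livers. The separation was complete, and the difference was 0.63 ± 0.22, or 1.55-fold (unadjusted p = 0.029, adjusted p = 0.691). A pair of collagens with a p under 0.05 was above background on no array and is named only for that p, after the values were seen. Col8a1, a network-forming collagen of vessel walls, read 2.64, 2.38 and 2.38 in Src-transgenic livers and 3.68, 3.79 and 3.78 in wild-type livers, a difference of -1.28 ± 0.18. Col16a1, a fibril-associated collagen, differed by -1.02 ± 0.41. Both lie where values reach the floor, so no fold is given, and with 50 added to the signal Col8a1 had -0.20. The collagens not named above ran from -0.53 for Col13a1 to 0.24 for Col19a1, with overlapping groups. Col19a1 was above background on no array, and its value was -0.016 with median scaling.

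The MMPs of chromosome 9 had 6 positive values and 2 negative ones among 8 measured, with a median of 0.36, against 51.7% positive over all features, and none had a p under 0.05. Of the 8 probes 4 were above background on no array. Mmp20, an enamel protease, read 5.70, 6.32 and 8.21 in Src-transgenic livers, against 5.31, 5.57 and 5.32 in wild-type livers. The high array, Src-transgenic replicate 4, had the probe in a patch, and the difference of 1.35 ± 0.63 was 0.61 without that array. Mmp7 (matrilysin, an epithelial protease) read 7.27, 8.996 and 7.17 in Src-transgenic livers and 7.45, 6.89 and 6.92 in wild-type livers. Its high array, Src-transgenic replicate 3, also had the probe in a patch, and the difference of 0.72 ± 0.53 was 0.13 without that array.

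Of the 7 MMP genes with the motif, 5 had positive values, against 51.7% of all features, and some of these signs turned in the alternatives. Mmp10 (stromelysin 2) had 0.83 ± 0.34 with a p of 0.051, at signals not above background. Mmp3 (stromelysin 1) had 0.37 ± 0.56. The close rodent copies Mmp1a and Mmp1b had 0.21 ± 0.47 and 0.36 ± 0.22, with Mmp1a above background on no array and the groups of Mmp1b without overlap. The probes of Mmp1a and Mmp1b may share target sequence, which was not tested. Mmp13, the main rodent interstitial collagenase, had -0.04 ± 0.28, and Mmp12, the macrophage elastase, had -0.22 ± 0.53. With single arrays left out Mmp3 ran from -0.26 to 0.87 and Mmp1a from -0.064 to 0.60. Mmp13 and Mmp12 also turned sign, while Mmp10, Mmp1b and Mmp7 stayed positive. With the replicate block Mmp3 had -0.22 and Mmp7 0.03. Mmp20 lacks the motif in its window. Its value was the highest of the 8 with all arrays, and without Src-transgenic replicate 4 it was 0.61, below Mmp7 at 1.04 and Mmp10 at 0.92.

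The gelatinases and the membrane enzyme that activates one of them gave values near 0 with overlapping groups. Mmp2 (gelatinase A) read 8.89, 8.62 and 8.48 in Src-transgenic livers and 8.33, 8.81 and 8.47 in wild-type livers, a difference of 0.13 ± 0.23 with an interval of -0.42 to 0.68. Mmp14, the membrane protease that activates Mmp2, read 9.15, 9.19 and 9.74 in Src-transgenic livers and 9.56, 9.23 and 9.28 in wild-type livers, a difference of 0.00 ± 0.24. Mmp9 (gelatinase B), a neutrophil and macrophage product, had -0.06 ± 0.27 below background. The intervals of Mmp2 and Mmp14 lie within 1 log2 unit either way, and the signal of Mmp9 was too low to set such a limit.

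Mmp21, a secreted MMP needed for left-right patterning in development, had the smallest p of the MMPs. It read 6.34, 6.32 and 6.57 in Src-transgenic livers, against 6.86, 7.42 and 7.76 in wild-type livers. All Src-transgenic values lay below all wild-type values, and the difference was -0.93 ± 0.28 (unadjusted p = 0.015, adjusted p = 0.691). The probe lay in a patch on wild-type replicate 4, and after local correction of patches the difference was -0.39. The MMPs not named here or with chromosome 9 ran from -0.57 for Mmp28 to 0.61 for Mmp17, with overlapping groups. Without wild-type replicate 1 Mmp28, which was above background on no array, had -0.12 and Mmp17 had -0.23.

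**Figure D3:**
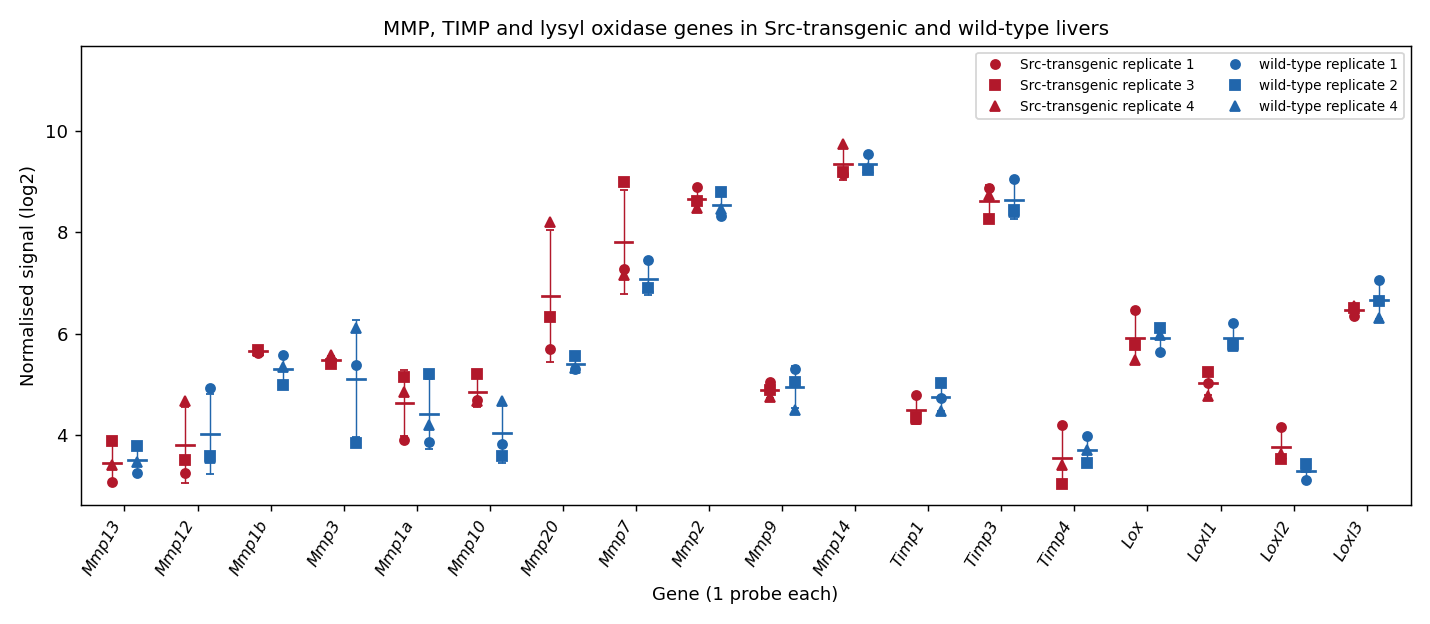
Normalised log2 signal (y axis) of 18 MMP, TIMP and lysyl oxidase genes (x axis), with Src-transgenic livers left of wild-type livers, 1 point per mouse, and the mean and SD as bars. Src-transgenic replicate 4 stands out for Mmp20 and Src-transgenic replicate 3 for Mmp7, while for Loxl1 all 3 Src-transgenic points lie below all 3 wild-type points.

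The 3 TIMPs measured had negative values with a median of -0.16. Timp3, which binds to the matrix, read 8.87, 8.26 and 8.74 in Src-transgenic livers and 9.06, 8.44 and 8.40 in wild-type livers, a difference of -0.01 ± 0.28. It turned to 0.06 after local correction of patches. Timp1, the inducible inhibitor that rises in liver injury, had -0.26 ± 0.24 and Timp4 -0.16 ± 0.35, both below background on all arrays.

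Lysyl oxidases form the cross-links of collagen and elastin. Loxl1, which serves elastic fibres, read 5.04, 5.26 and 4.78 in Src-transgenic livers, none above background, against 6.22, 5.80 and 5.76 in wild-type livers, all above background. No values overlapped (unadjusted p = 0.0078, adjusted p = 0.691). The log2 difference was -0.90 ± 0.23 with an interval of -1.47 to -0.34, and it was -0.43 with 50 added to the signal. When single arrays were left out it lay between -1.02 and -0.76. Because the Src-transgenic signal was not above background, the fold from the group means is given as at least 1.58-fold lower. That fold takes no account of the error of the means, and the interval reaches smaller differences. Lox itself read 6.47, 5.78 and 5.49 in Src-transgenic livers and 5.65, 6.12 and 5.97 in wild-type livers, a difference of 0.00 ± 0.31. Loxl2, a cross-linking enzyme studied in fibrotic liver, had 0.47 ± 0.24 without overlap, at signals below background, and it had 0.14 with median scaling and 0.094 with 50 added to the signal. Loxl3 had -0.19 ± 0.25, and Loxl4 had -0.75 ± 0.33 at signals above background on no array. Positive values were 2 of 5.

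Among the 13 ADAMTS genes 5 values were positive and 8 negative, with a median of -0.17 and no p under 0.05. Adamts8, a protease that limits vessel growth, read 7.06, 6.05 and 6.29 in Src-transgenic livers, against 7.73, 7.22 and 6.88 in wild-type livers. The groups overlapped, and the difference of -0.81 ± 0.36 was -0.08 after local correction of patches, its probe being in a patch on Src-transgenic replicates 3 and 4. Adamts20 ran from 6.93 to 7.004 in Src-transgenic livers, against 6.57 to 6.73 in wild-type livers, a non-overlapping difference of 0.32 ± 0.17. Adamts1, a proteoglycan-cutting protease, had 0.04 ± 0.42, and Adamts2, which removes the amino-terminal propeptide of procollagen, had -0.30 ± 0.39 at signals below background. Adamts10 had the widest spread of the 13 ADAMTS genes, with 3.41 to 7.68 in Src-transgenic livers and 4.64 to 9.27 in wild-type livers. Its difference of -2.14 ± 1.54 was the lowest of the 76 genes, with overlapping groups and an interval of -5.88 to 1.61. The Adamts10 probe was in a patch on 1 array of each group. The ADAMTS genes not named here ran from -0.98 for Adamts5 to 0.89 for Adamts4, with overlapping groups. Both end genes were above background on no array, and Adamts4 had 0.28 without wild-type replicate 1.

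**Figure D4:**
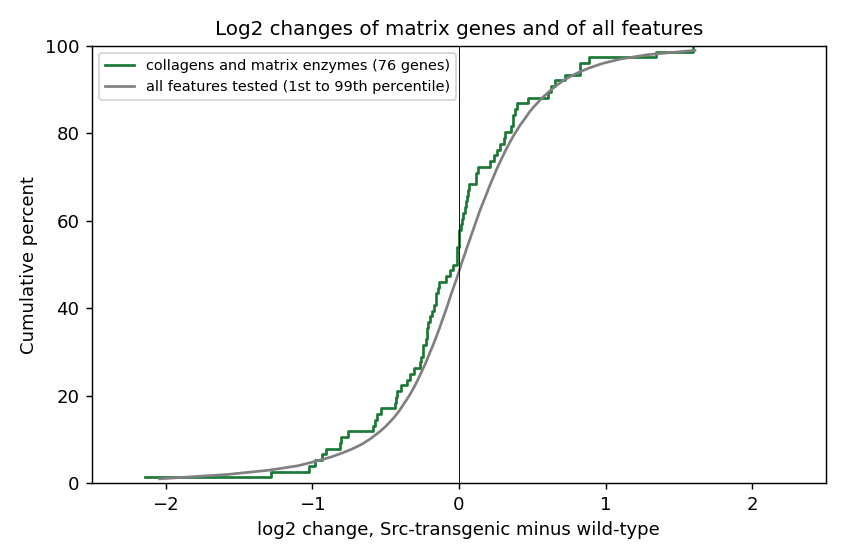
Cumulative percent (y axis) of log2 changes, Src-transgenic minus wild-type (x axis), for the 76 genes and for all 34175 features between their 1st and 99th percentile. The curves run close together, with medians of -0.03 and 0.02.

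Genes that fold, process and bind collagen were counted in the same fit. Of 19 genes for collagen folding and processing, 1 was higher and 2 were lower at an unadjusted p under 0.05, with a median of -0.13. Over all features 4.37% were higher and 2.72% lower at that p. P4ha1, a catalytic chain of the prolyl hydroxylase that stabilises the triple helix, read 9.43, 9.11 and 9.31 in Src-transgenic livers, against 8.46, 8.64 and 8.50 in wild-type livers. Again the groups were separate, with a difference of 0.75 ± 0.19 (unadjusted p = 0.0071, adjusted p = 0.691). Fkbp10, a collagen chaperone, had -1.17 ± 0.43 with its probe in a patch on 3 arrays. None of 26 matrix glycoprotein and proteoglycan genes had a p under 0.05 (median -0.09), with the microfibril gene Fbn2 at -0.63 ± 0.32 and Fbln2 at -0.55 ± 0.32. None of 20 other matrix proteases, activators and inhibitors had one either (median 0.05). Furin, which activates membrane MMPs, had -1.06 ± 0.50 without overlap, with its probe in a patch on Src-transgenic replicates 3 and 4, and the sheddase Adam10 -0.66 ± 0.43.

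Of 15 genes of the TGF-beta axis, the main fibrogenic signal, 1 was higher at an unadjusted p under 0.05, against 4.37% of all features. The median was -0.04. The ligand Tgfb2 read 7.29, 8.38 and 7.53 in Src-transgenic livers, against 6.76, 7.01 and 6.97 in wild-type livers, a difference of 0.82 ± 0.32 with its probe in a patch on Src-transgenic replicate 3, the high array. The matricellular target Ccn2 had 0.55 ± 0.26, also without overlap. Of 6 collagen receptors 1 was higher at that p, against 4.37% of all features, namely the integrin chain Itga11. It read 6.85, 6.68 and 6.97 in Src-transgenic livers, against 6.12, 6.33 and 6.13 in wild-type livers. The difference was 0.65 ± 0.19 (unadjusted p = 0.014, adjusted p = 0.691), and the integrin chain Itga2 had -0.46 ± 0.26 below background. No gene of these lists passed limma's adjusted test.

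Markers of cells that make or meet matrix were read the same way. The summed linear signal of 10 stellate cell markers was 5066 to 8141 in Src-transgenic livers and 5938 to 6345 in wild-type livers, with Hand2 above background on no array. A single gene, Ecm1, made up 67.8% of that sum. The high value was that of Src-transgenic replicate 4, and the other Src-transgenic arrays, at 5066 and 5147, lay below the wild-type range. For 8 markers of myofibroblasts and portal fibroblasts it was 745 to 924 in Src-transgenic livers and 726 to 907 in wild-type livers. In that list Cdh11, a mesenchymal cadherin, had -0.72 ± 0.21 (unadjusted p = 0.013, adjusted p = 0.691) and Entpd2 0.71 ± 0.30, each without overlap and of opposite sign. The 5 Kupffer cell markers summed to 3270 to 6437 in Src-transgenic livers and 3460 to 3917 in wild-type livers, and the 6 neutrophil markers to 634 to 1046 in Src-transgenic livers and 498 to 896 in wild-type livers. Src-transgenic replicate 4 was again the high array of both, and without it the highest Src-transgenic sums were 3680 for Kupffer cell and 757 for neutrophil markers. Liver endothelium (8 markers) summed to 3314 to 4509 in Src-transgenic livers and 3707 to 4943 in wild-type livers, with Src-transgenic replicate 4 the high array and the next at 3649. Cholangiocytes (5 markers) summed to 861 to 1296 in Src-transgenic livers and 887 to 1243 in wild-type livers. Spp1 made up 69.4% of the cholangiocyte sum. In that list Krt7 had 0.88 ± 0.41 without overlap, and the other 4 markers had negative values. Of 6 muscle markers, Acta1, Tnnt3 and Cnn1 were above background on no array. With all arrays the ranges of the groups overlapped for each of these lists, no marker other than Cdh11 had a p under 0.05, and the part of these cells in the matrix values was not tested.

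**Figure D5:**
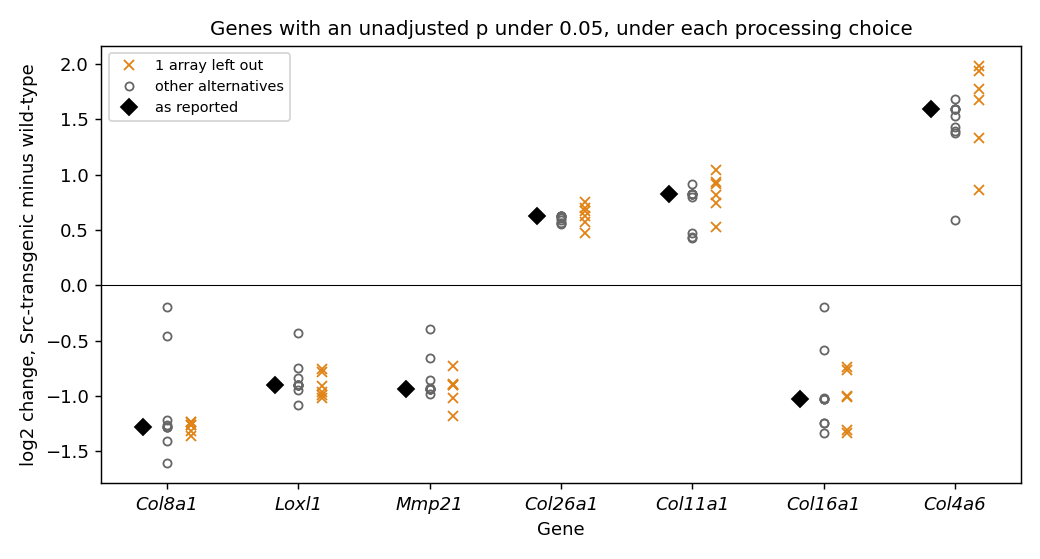
Log2 change, Src-transgenic minus wild-type (y axis), of the 7 genes with an unadjusted p under 0.05 (x axis), as reported (diamonds), with 1 array left out (crosses) and under the other alternatives (circles). Signs hold for all 7, and values nearest to 0 are those of Col8a1 at -0.20 and Col16a1 at -0.19 with 50 added to the signal.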

How the data were processed

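Total RNA from 6 livers was amplified to biotin-labelled cRNA and read on 1-colour arrays by streptavidin coupled to Alexa-647, as the labels' protocols state. The deposited intensity was a background-corrected spot signal, per the file headers; the authors' value table holds the same intensity divided by 1 constant per array. The scanner, the image software and the genome build were not given in the sources used here.

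After 620 control spots were left out, values under each array's 1st percentile of positive signals were raised to it, log2 transformed and quantile normalized. Accessions without versions were matched to RefSeq (GRCm38.p6), naming 14763 of 34967 probes. A gene took its probe with the highest mean. Above background means more than 3 scaled median absolute deviations over the median of 570 control spots (33.0 to 50.6). An at-least fold sets the brighter group's mean against the dim group's values raised to the lowest signal above background. It takes no account of the error of the means. The comparison used R 4.3.3 and limma 3.58.1 with eBayes after lmFit (two-sided), adjusted by Benjamini-Hochberg across all 34175 features, and its steps were tested on simulated data; errors are limma's SE. P-values measure the spread between the mice as the labels number them, and the number of arrays limits precision. Patches were places where the median deviation of spots within 4 rows and columns exceeded 0.5.

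Genes named were the 12 smallest p among members above background on all arrays of a group, the 8 brightest, and fixed liver matrix genes. The 2 smallest p were also named for each list of matrix pathway genes and for myofibroblasts and portal fibroblasts. Most other cell type lists are given as sums, without naming their 2. The remaining members are given with their families. Members and lists were chosen with earlier results of these data known. One gene is not reported here. Alternatives were other scalings, floors, filters, spread models, array weights, probe averaging, patch correction, the authors' table, a replicate block and single arrays left out.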

Additional observations from a re-analysis of the deposited data

How the results depend on the processing

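No matrix gene passed limma's adjusted test under any alternative run, and the lowest adjusted p of the 32 named genes was 0.565. Over all features 0 to 1 were called with single arrays left out: 1 unnamed probe without Src-transgenic replicate 4 (adjusted p = 0.031) and 1 without wild-type replicate 1 (adjusted p = 0.040), and 0 under the other alternatives. The count of 7 matrix genes at an unadjusted p under 0.05 became 4 to 10 with single arrays left out, not all of them among the 7. The 4 were without Src-transgenic replicate 3, with 0 higher and 4 lower. Local correction of patches gave 1 higher and 6 lower, of which 4 were among the 7. Shares over all features at this p were worked out only with all arrays and for median scaling. The other counts therefore have no background and give no direction. The median over the matrix genes was -0.15 to -0.02 with single arrays left out, and -0.13 with median scaling, which put the median of all features at -0.08.

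Signs turned in 40 of 505 refitted values, and 20 of the 32 named genes kept theirs in every alternative. Some of the 505 could not turn. Probe averaging, the authors' table, the spread model and the background filter left the log2 change as it was, each gene having 1 probe. Median scaling gave Lox -0.037, Adamts1 -0.023, Mmp14 -0.13 and Col17a1 -0.20. The floor at the 5th percentile gave Mmp13 0.019. Array weights gave Col1a1 -0.011, Timp3 0.059 and Mmp14 -0.031. Local correction gave Timp3 0.063, Adamts1 -0.011, Mmp14 -0.21 and Col17a1 -0.19. With single arrays left out the ranges were -0.16 to 0.22 for Col1a1, -0.28 to 0.21 for Lox, -0.37 to 0.44 for Adamts1, -0.62 to 0.10 for Adamts2, -0.65 to 0.24 for Mmp12, -0.078 to 0.094 for Col17a1, -0.26 to 0.15 for Mmp13, -0.13 to 0.20 for Timp3, -0.29 to 0.12 for Mmp9, -0.19 to 0.11 for Mmp14 and -0.015 to 0.55 for Col4a1. The cause was not tested.

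The groups share the replicate numbers 1 and 4, whose samples had correlations of deviations of 0.0603 and 0.0578, so the numbers were not taken as pairs. With the replicate block 5 matrix genes had a p under 0.05, 0 higher and 5 lower, the median was -0.04, and 0 features were called. The share of all features at that p was not worked out for the block, so this count gives no direction. The block gave Col14a1 0.023, Timp3 0.074, Adamts1 -0.034 and Col17a1 -0.017.

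Signal over background limits the reading, since 23 of the 76 genes were above background on no array. The filter for probes above background on at least 3 arrays kept 48 of them, with 5 at a p under 0.05. The share of all filtered features at that p was not worked out.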
